A study of Macaca fascicularis with 3 samples.

Results

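A set of 5 transcription factors of head muscle, LMX1A, ALX4, LHX2, TBX1 and MSC, were followed through nuclei and cells of muscle from the cynomolgus macaque (Macaca fascicularis). They were chosen by symbol, 5 of 38550 features in each table of nuclei and 5 of 33368 in the table of cells, and each symbol had 1 entry in every table. The samples were extraocular muscle (EOM), which moves the eye, and the QFM sample of the study, which its title sets against EOM as quadriceps muscle of the thigh. There were 3 libraries, 1 in each group: EOM nuclei, QFM nuclei and whole EOM cells. No treatment, genotype, age, sex or number of animals is given in the labels, so each library may come from 1 animal or several. Nuclei are named in the title of the QFM sample, but its file names speak of single cells. Should the file names hold, the EOM to QFM ratios below would also set nuclei against cells.

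Most muscles of the head, those that move the eye included, do not form from the somites that give rise to trunk and limb muscle. They enter the muscle programme under other upstream regulators. TBX1, a T-box factor, and MSC (musculin), a basic helix-loop-helix repressor, act in the mesoderm of the pharyngeal arches, and LHX2, a LIM-homeodomain factor, acts with them there. LMX1A, another LIM-homeodomain factor, is best known from the roof plate and midbrain dopamine neurons, and ALX4 is a paired-type homeodomain factor of craniofacial and limb mesenchyme. Extraocular muscle holds fibre types that limb muscle lacks, with the myosin heavy chains MYH13 (superfast) and MYH15 (slow-tonic).

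Depth was counted in UMIs (unique molecular identifiers, 1 for each captured RNA molecule). EOM nuclei had 61618999 UMIs in 16491 barcodes, QFM nuclei 72590186 in 12503 and EOM cells 12248405 in 8979. Filters and the removal of called doublets left 13975, 10525 and 7111 barcodes, whose median UMI counts were 2811, 4508 and 1142. Their median mitochondrial shares were 0.46%, 0.19% and 11.9%, so by this measure QFM was like the EOM nuclei and unlike the EOM cells. Levels are CPM (counts-per-million), from UMI sums over the nuclei of a group. Each group being 1 library, differences have no replicate check and were not tested. Intervals are at 95% and take in counting error alone. Sums over a group cannot tell fewer expressing nuclei from less RNA in each, so shares of nuclei with a UMI are given beside them, also after each nucleus was thinned to 1000 UMIs.

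Myonuclei, the nuclei of the contractile fibres, were taken as the myofibre-like clusters, 7852 in EOM (median 3642 UMIs) and 7421 in QFM (median 5107 UMIs). The other groups were gated outside these clusters by at least 2 UMIs of 1 gene and none of the other gate genes. PAX7, the factor of muscle stem (satellite) cells, marked 322 EOM and 316 QFM nuclei, of which 306 and 309 lay in satellite-like clusters. PDGFRA, a receptor of fibro-adipogenic stroma, marked 229 and 179, of which 227 and 177 lay in stromal-like clusters. PTPRB, a phosphatase of the endothelium, marked 921 and 928, of which 909 and 923 lay in endothelial-like clusters. Myofibre RNA was present in every gate: all 16 of 16 myofibre markers with a symbol were seen in each, and their summed level in EOM was 39686 CPM in myonuclei, 8831 in PAX7+, 4738 in PDGFRA+ and 4928 in PTPRB+ nuclei. In QFM the same sums were 62405, 6295, 7079 and 4909 CPM. A level of a factor outside its source therefore needs a yardstick. For each factor the source was the group of highest level, and its level elsewhere, as a percentage of the source, was set beside the same percentage for tracer genes of that source. Many tracers were also markers that named the clusters, and tracers, unlike the factors, could shape the clustering. Gates outside the myofibre-like clusters may therefore be low in tracers by choice, and a factor above them may be partly built in. The part of that choice was not tested.

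LMX1A and ALX4 set the muscles apart. In myonuclei LMX1A had 15662 UMIs in EOM and 22 in QFM, or 448 CPM (441 to 455) against 0.518 CPM (0.324 to 0.784). A UMI of LMX1A was seen in 50.2% of EOM and 0.243% of QFM myonuclei, and after thinning in 30.1% and 0.0408%. ALX4 had 7747 and 244 UMIs, or 222 CPM (217 to 227) against 5.74 CPM (5.04 to 6.51), with a UMI in 50.4% and 3.02% of myonuclei and in 19.1% and 0.638% after thinning. The log2 ratio of EOM to QFM was 9.76 (9.16 to 10.43) for LMX1A and 5.27 (5.09 to 5.46) for ALX4. These ratios stand in a general shift towards EOM: the median gene had a log2 ratio of 0.41, and 33.1% of 19265 genes with at least 20 counts were at least 2-fold higher in EOM, against 8.93% at least 2-fold lower. Scaling by the median ratio of genes in place of the totals lowers every ratio by 0.40. A ratio as high as that of LMX1A was found for 11 of these genes, LMX1A among them, and one as high as that of ALX4 for 294.

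The 3 factors of the pharyngeal programme did not share a direction. TBX1 was lower in EOM myonuclei, with 612 UMIs in EOM and 1314 in QFM, or 17.5 CPM (16.2 to 19.0) against 30.9 CPM (29.3 to 32.6), a log2 ratio of -0.82 (-0.96 to -0.68). It was seen in 7.12% and 14.4% of myonuclei, and in 1.81% and 2.47% after thinning. LHX2 had 40 and 5 UMIs, or 1.14 and 0.118 CPM, and MSC 30 and 11 UMIs, or 0.859 and 0.259 CPM. Both were at the edge of detection in myonuclei of both muscles, and their log2 ratios were 3.28 (1.94 to 4.98) and 1.73 (0.69 to 2.88). By size alone 4 of the 5 factors were at least 2-fold higher in EOM myonuclei and 0 at least 2-fold lower, beside the 33.1% and 8.93% over all genes.

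**Figure D1:**
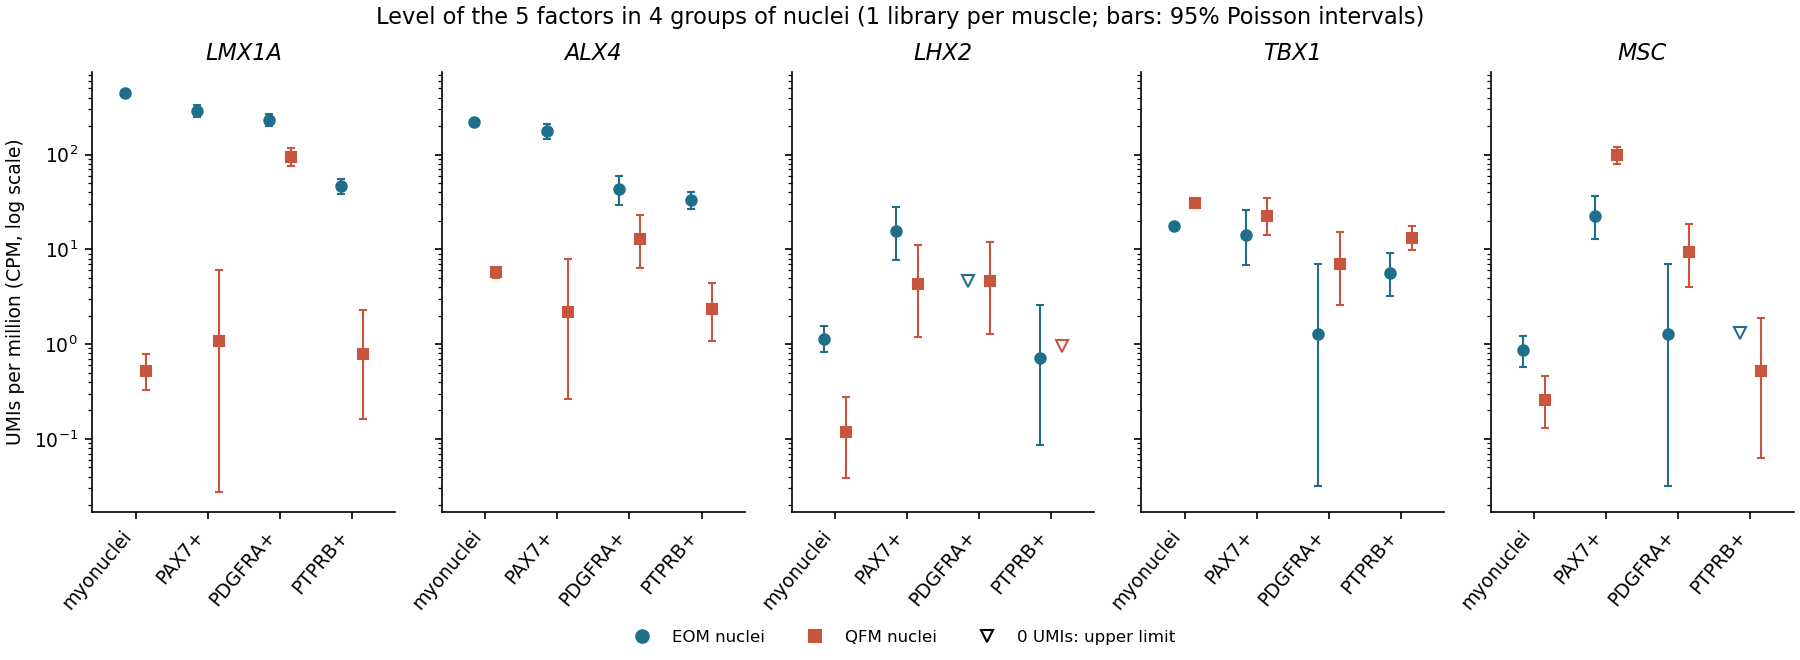
Level of each factor in CPM (log scale) in myonuclei and in PAX7+, PDGFRA+ and PTPRB+ nuclei of EOM (circles) and QFM (squares), with 95% Poisson intervals and an open triangle at the upper limit where no UMI was found. LMX1A and ALX4 were higher in EOM in all 4 groups, TBX1 was lower in EOM myonuclei (17.5 against 30.9 CPM), and MSC peaked in QFM PAX7+ nuclei at 98.5 CPM.

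LMX1A followed the myosin chain of the EOM myonucleus and ALX4 did so far less. The leading chain was the one with most UMIs among MYH13, MYH15, MYH3, MYH4, MYH7 and MYH6. These genes may share reads, and MYH1 and MYH2, the common fast chains of limb muscle, have no symbol in the tables, so that nuclei led by MYH3, the embryonic chain, are called here only by that name. LMX1A reached 264 CPM in 4644 MYH13-led nuclei, 492 in 1060 MYH3-led, 704 in 182 MYH7-led (slow) and 990 in 1562 MYH15-led nuclei. At least 3 UMIs of LMX1A were held by 14.6%, 22.4%, 42.9% and 57.3% of these nuclei. Median depths were alike, between 3058 and 4125 UMIs, and after thinning the shares with a UMI kept this order, at 19.9%, 31.1%, 43.9% and 54.2%. The log2 ratio was 1.91 (1.86 to 1.96) for MYH15-led over MYH13-led nuclei, 1.41 (1.28 to 1.55) for MYH7-led over MYH13-led and 0.49 (0.36 to 0.63) for MYH15-led over MYH7-led. The intervals of neighbours in this order did not meet. Where the leading chain had to hold at least 80% of the chain UMIs, the first of these ratios was 2.67 (2.11 to 3.25), on 71 and 44 UMIs.

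ALX4 lay between 209 and 277 CPM in the same 4 groups of EOM nuclei. Its MYH15-led to MYH13-led log2 ratio was -0.08, with an interval that ended next to 0, and -0.94 (-1.95 to -0.07), on 12 and 91 UMIs, where the leading chain had to hold at least 80%. The MYH7-led to MYH13-led ratio was 0.32 (0.11 to 0.53). TBX1 lay between 15.3 and 21.2 CPM, with a MYH15-led to MYH13-led log2 ratio of -0.10 (-0.41 to 0.20). LHX2 and MSC did not exceed 1.41 CPM in any of the 4.

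The same EOM nuclei were also placed on a scale, by the share of MYH15 among the UMIs of MYH13 and MYH15, in nuclei with at least 10 such UMIs. LMX1A climbed along it from 98.2 CPM in 2546 nuclei with under 5% MYH15, through 287 at 5 to 20%, 526 at 20 to 50% and 951 at 50 to 80%, to 999.6 at 80 to 95%. The share of nuclei with at least 3 LMX1A UMIs climbed from 4.79% to 58.6% over these bins. By fold, most of the climb lay below a MYH15 share of 50%, and the last bin, of 57 nuclei above 95%, had 1088 CPM. ALX4 stayed between 184 and 253 CPM over the 6 bins.

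**Figure D2:**
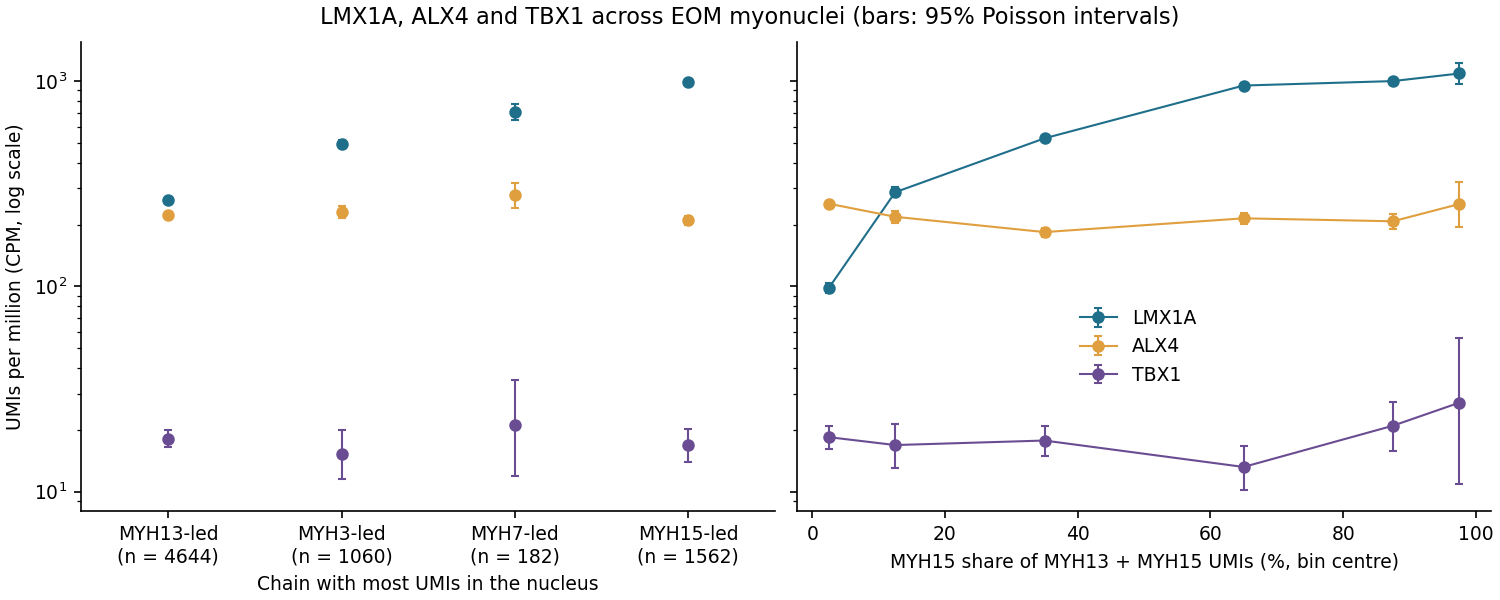
LMX1A, ALX4 and TBX1 in EOM myonuclei, in CPM (log scale), by the chain with most UMIs (left) and by the percentage of MYH15 among MYH13 and MYH15 UMIs (right, plotted at bin centres), with 95% Poisson intervals. LMX1A climbs from 98.2 to 1088 CPM along the MYH15 scale while ALX4 stays between 184 and 253.

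Clusters of EOM myonuclei, made without the factors among the variable genes, gave the same picture. LMX1A was highest in a cluster led by ADAM7, NDP and MYH6 (659 nuclei, 990 CPM) and in one led by FAM240B, NRXN3 and MYH15 (1551 nuclei, 979 CPM). It was lowest, at 64.0 CPM, in 1961 nuclei led by CCDC60, SLC28A3 and MYBPC2, a fast myosin-binding protein. That level was a little above the 46.1 CPM of PTPRB+ nuclei of the same library (log2 ratio 0.47, 0.20 to 0.76). ALX4 in the same cluster was 251 CPM against 33.0 in PTPRB+ nuclei, a log2 ratio of 2.93 (2.63 to 3.24). These nuclei thus carried ALX4 at the usual EOM level with LMX1A near the level of the endothelium. Across the 9 myofibre-like clusters of EOM, ALX4 ranged from 151 to 321 CPM and LMX1A from 64.0 to 990. The lowest ALX4 was in clusters of unusual depth. It was 151 CPM in 240 nuclei led by PPARG (median 10631.5 UMIs) and 154 in 1668 led by KRT16 (median 1322.5 UMIs). The part of depth or mixed barcodes in these levels was not tested.

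In QFM the 4459 MYH3-led and 2893 MYH7-led myonuclei had no MYH13-led or MYH15-led counterpart. LMX1A was at 0.588 and 0.431 CPM in them. ALX4 was at 7.48 CPM in MYH3-led and 3.503 in MYH7-led nuclei, a log2 ratio of -1.10 (-1.53 to -0.68) for MYH7-led over MYH3-led. In thinned nuclei the ratio of MYH3-led over MYH7-led was 0.61 (-0.41 to 1.75), on 33 and 11 UMIs. TBX1 was at 30.6 and 31.2 CPM, a log2 ratio of 0.03 (-0.13 to 0.19). Slow nuclei of the 2 muscles could be set side by side by their leading chain, though not by their other chains. In MYH7-led nuclei LMX1A was at 704 CPM in EOM and 0.431 in QFM (log2 ratio 10.67) and ALX4 at 277 and 3.503 (6.31). TBX1 there was at 21.2 and 31.2 CPM, with an interval that took in 0 (-0.56, -1.40 to 0.18), while in MYH3-led nuclei it was at 15.3 and 30.6 CPM (-0.999). The higher LMX1A and ALX4 of EOM were thus also seen in its MYH7-led nuclei. Those nuclei can hold the other EOM chains as well. The EOM cluster led by TECRL had MYH7 at 2015, MYH13 at 1863 and MYH15 at 1112 CPM. In the QFM cluster led by ATP2A2 the same chains were at 3893, 1.49 and 0.199 CPM. The part of these chains in the difference was not tested.

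LMX1A and ALX4 were often seen in the same EOM myonucleus. Of 7852 nuclei 2208 (28.1%) held both and 2165 (27.6%) neither. ALX4 was seen in 56.1% of nuclei with LMX1A and 44.7% of those without, whose median depths were 4144 and 3089 UMIs. The part of depth in that gap was not tested. In QFM 18 of 7421 myonuclei held LMX1A and 224 held ALX4, too few to read an overlap from, and none held both.

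In PAX7+ nuclei, the satellite cells, both factors were again high in EOM. LMX1A had 203 UMIs in EOM and 1 in QFM, or 288 CPM (250 to 330) against 1.08 (0.0274 to 6.03), a log2 ratio of 8.05 (5.56 to 13.37). ALX4 had 125 and 2 UMIs, or 177 CPM (148 to 211) against 2.17 (0.262 to 7.82), a log2 ratio of 6.36 (4.47 to 9.42). LMX1A was seen in 33.9% of EOM PAX7+ nuclei (median 1947 UMIs) and ALX4 in 30.4%, while PTPRB+ nuclei of EOM (median 2882 UMIs) had 12.7% and 9.45%. After thinning the shares were 17.5% and 16.8% in PAX7+ against 5.60% and 3.19% in PTPRB+ nuclei. Among 9449 genes 9.14% were at least 2-fold higher and 13.5% at least 2-fold lower in EOM PAX7+ nuclei, and a ratio as high as that of LMX1A and ALX4 was found for 2 and 8 of them, each factor included.

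Against the yardstick, both factors in EOM PAX7+ nuclei stood above the tracers of myofibre RNA. Many of these tracers, unlike the factors, had helped to define the myofibre-like clusters that the gate left out. LMX1A was at 64.2% of its myonuclear level and ALX4 at 79.97%, while the 27 tracers had a median of 18.2% (14.4 to 72.8%). Only TNNC2, a small abundant fast troponin, matched the share of LMX1A, and no tracer matched that of ALX4. Called doublets mattered here: with them kept, the log2 ratio of the share to the tracer median went from 1.82 to 0.51 for LMX1A and from 2.14 to 0.81 for ALX4. The gate was also divided at its median share of the 6 chains, a split chosen after the data were seen. The 161 nuclei with less chain RNA had 2201 chain CPM and the 161 with more had 5872. LMX1A was at 329 CPM in the former and 240 CPM in the latter (log2 ratio 0.46, 0.04 to 0.89), and ALX4 at 177 and 178 CPM. The log2 ratio of ALX4 was -0.01 (-0.54 to 0.52), an interval that allows a change in either direction.

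PTPRB+ nuclei behaved otherwise. LMX1A was at 46.1 CPM (130 UMIs) in EOM and 0.783 (3 UMIs) in QFM, and ALX4 at 33.0 (93 UMIs) and 2.35 (9 UMIs), so that the log2 ratios, 5.88 and 3.81, were large as well, beside 10.9% of 12667 genes at least 2-fold higher and 6.47% at least 2-fold lower. The EOM level was 10.3% of that of myonuclei for LMX1A and 14.9% for ALX4, beside a tracer median of 13.2% (9.98 to 44.1%), and 24 and 10 of the 27 tracers stood as high. Divided by chain share, the PTPRB+ nuclei with less and more chain RNA had 1703 and 3585 chain CPM and 32.6 and 61.6 CPM of LMX1A, a log2 ratio of -0.92 (-1.46 to -0.39). ALX4 was at 30.6 and 35.7 CPM (-0.22, -0.84 to 0.39). The LMX1A of the endothelial gate was thus within the tracers and lower with less myosin RNA, and no level of its own was detectable. With called doublets kept, the log2 ratio of its share to the tracer median went from -0.36 to 0.066. LMX1A of macrophage-like nuclei in EOM, at 8.48% of the myonuclear level beside a tracer median of 14.3%, and of mural-like nuclei, at 27.8% beside 26.6%, lay among the tracers too.

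**Figure D3:**
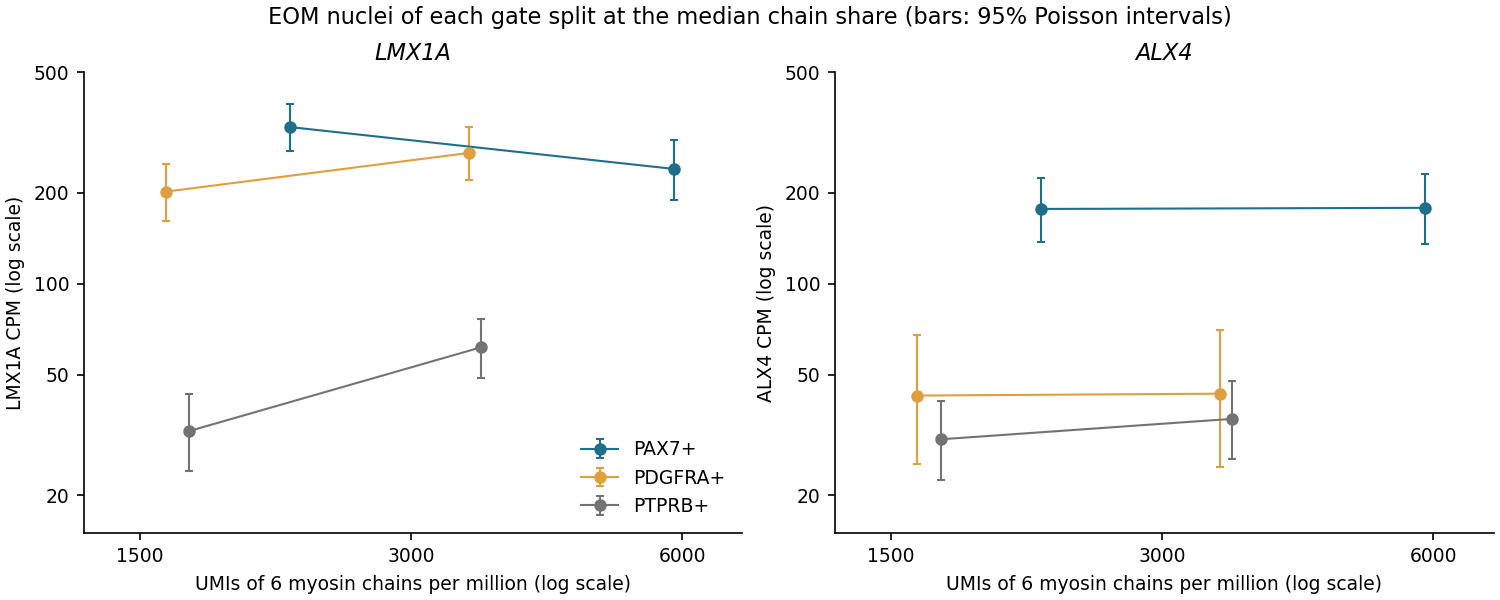
LMX1A (left) and ALX4 (right) in EOM nuclei, in CPM, against the summed CPM of 6 myosin chains (both axes log), for each gate divided at its median chain share, with 95% Poisson intervals. LMX1A is at 329 and 240 CPM in PAX7+ nuclei with less and more chain RNA, and at 32.6 and 61.6 in PTPRB+ nuclei.

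The stroma held LMX1A in both muscles. In PDGFRA+ nuclei LMX1A had 185 UMIs in EOM and 81 in QFM, or 234 CPM (201 to 270) against 94.5 CPM (75.0 to 117). It was seen in 38.0% and 26.3% of these nuclei (median depths 3283 and 3999 UMIs), and in 16.2% and 6.70% after thinning. PTPRB+ nuclei of QFM, with a median of 3734 UMIs, had a share of 0.323%. The log2 ratio of EOM to QFM was 1.31 (0.92 to 1.70), beside 9.63% of 9145 genes at least 2-fold higher and 15.6% at least 2-fold lower. The ratio was 8.05 in PAX7+ nuclei, and the stroma was the only one of the 4 groups in which QFM had more than a few CPM of LMX1A.

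In EOM the stromal LMX1A stood above the myofibre tracers, at 52.1% of the myonuclear level beside a median of 12.7% (5.36 to 48.0%), with 0 of 27 tracers as high. With called doublets kept, the log2 ratio to the tracer median went from 2.04 to 1.27. Divided by chain share, PDGFRA+ nuclei of EOM with 1602 and 3475 chain CPM had 201 and 270.4 CPM of LMX1A, a log2 ratio of -0.42 with an interval (-0.86 to 0.01) that took in 0. In QFM the stroma was itself the source, and the direction turned round: myonuclei had 0.548% of the stromal level beside 1.07% for 12 stromal tracers, all 12 of which stood as high, and PTPRB+ nuclei 0.829% beside 1.31%. The 22 UMIs of LMX1A in QFM myonuclei were therefore no more than stromal tracers gave there. By clusters, 2324 EOM and 1070 QFM stromal-like nuclei had 1449 and 447 UMIs, or 232 and 115 CPM, a log2 ratio of 1.01 (0.86 to 1.17). Stromal-like over endothelial-like clusters gave 2.31 (2.07 to 2.54) in EOM and 7.86 in QFM, where the endothelial-like clusters had 2 UMIs.

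ALX4 in the stroma was less plain. PDGFRA+ nuclei had 34 UMIs in EOM and 11 in QFM, or 42.9 and 12.8 CPM, a log2 ratio of 1.74 (0.73 to 2.87), and stromal-like clusters 55.1 and 5.91 CPM (3.22). The EOM share of the myonuclear level was 19.4%, with 4 of 27 tracers as high, so the level could not be told apart from myofibre RNA. In QFM, PDGFRA+ nuclei were the group of highest ALX4 on those 11 UMIs, and myonuclei had 44.7% of that level beside 1.07% for the stromal tracers, 0 of which stood as high. ALX4 of QFM myonuclei, 244 UMIs in all, was thus above what stromal tracers gave. Across QFM myofibre-like clusters it was 8.44 CPM in 2285 nuclei led by ATP2A1 (the fast-fibre calcium pump) and MYBPC2, and 3.89 CPM in 1716 nuclei led by ATP2A2, the calcium pump of slow fibres.

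**Figure D4:**
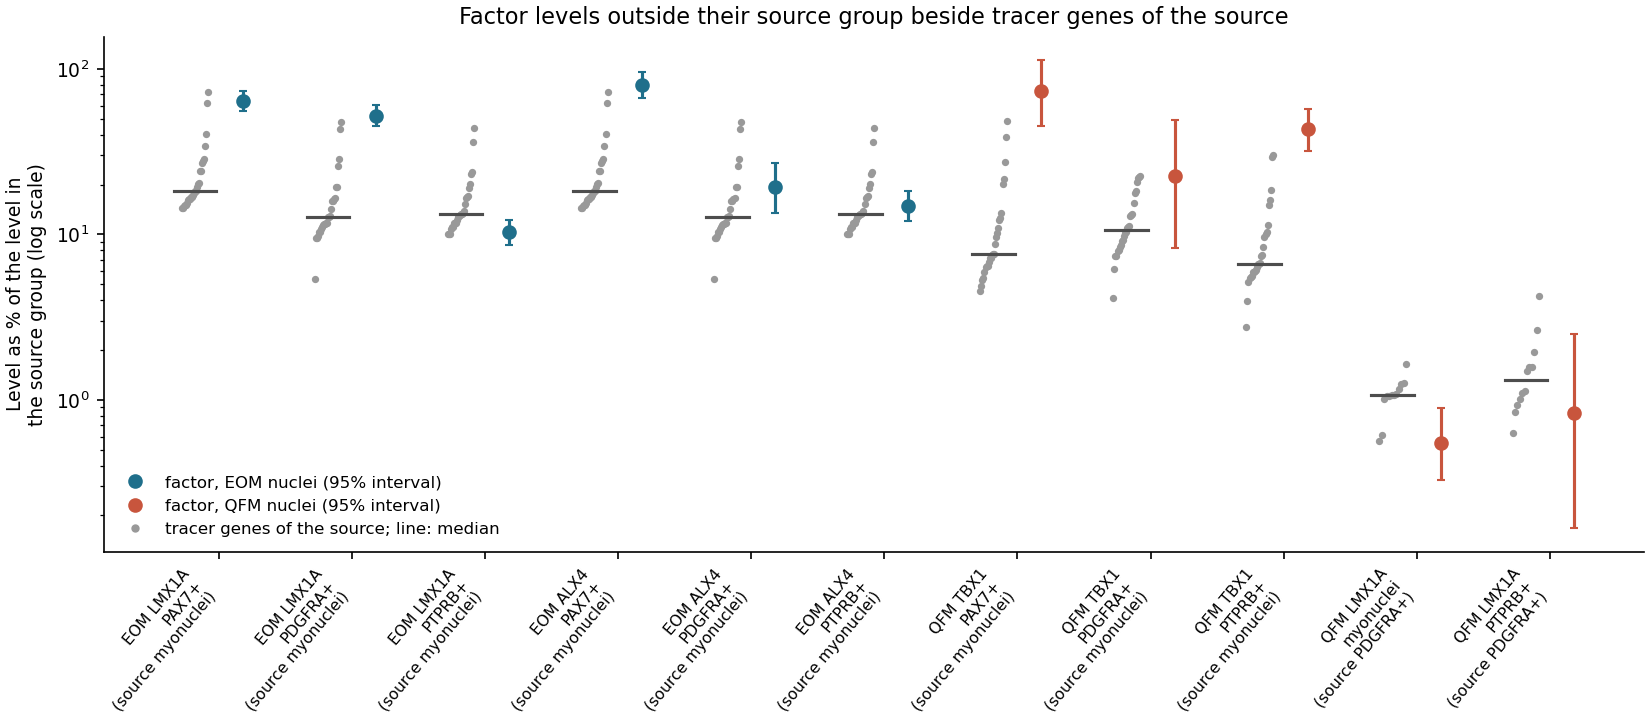
Level of a factor outside its source group as a percentage of the level in the source (coloured points with 95% intervals) beside the same percentage for tracer genes of the source (grey points, bar at the median), on a log scale. LMX1A (64.2%) and ALX4 (79.97%) in EOM PAX7+ nuclei and LMX1A in PDGFRA+ nuclei (52.1%) lie above the tracer medians of 18.2% and 12.7%, while LMX1A in EOM PTPRB+ nuclei (10.3%) and in QFM myonuclei (0.548%) does not.

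MSC was highest in the PAX7+ nuclei of QFM. PAX7+ nuclei had 16 UMIs of MSC in EOM and 91 in QFM, or 22.7 CPM (12.97 to 36.9) against 98.5 CPM (79.3 to 121), a log2 ratio of -2.12 (-2.98 to -1.34). It was seen in 4.66% and 22.2% of them, and in 1.59% and 8.28% after thinning. As low a ratio was found for 312 of 9449 genes, MSC included. Satellite-like clusters gave the same difference, 27.1 CPM in 557 EOM and 107 CPM in 398 QFM nuclei. MSC in QFM myonuclei, at 0.263% of the PAX7+ level beside a tracer median of 0.205%, did not stand out from satellite-cell tracers, nor did MSC in EOM myonuclei (3.78% beside 5.10%). In PDGFRA+ nuclei MSC had 1 UMI in EOM and 8 in QFM, or 1.26 and 9.33 CPM (log2 ratio -2.89, -8.36 to 0.01). The QFM value was 9.47% of the PAX7+ level, above all 5 satellite-cell tracers (up to 7.70%). PTPRB+ nuclei had 0 and 2 UMIs, where 3 counts would be 1.06 CPM in EOM.

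LHX2 had few UMIs in every group. Its highest level was 15.6 CPM (11 UMIs in 11 nuclei) in EOM PAX7+ nuclei, beside 4.33 CPM (4 UMIs) in QFM, with a log2 ratio of 1.85 (0.09 to 3.95). With a gate of 1 UMI the ratio was 0.84 (-0.54 to 2.38). Satellite-like clusters had 17 and 7 UMIs, or 15.4 and 6.43 CPM, a ratio of 1.26 (-0.09 to 2.77), so the LHX2 difference was not clear of counting error. In EOM myonuclei LHX2 was at 7.34% of the PAX7+ level, and 2 of 5 satellite-cell tracers stood as high. In stromal-like clusters the order was reversed, with 2 UMIs (0.320 CPM) in EOM but 18 (4.63 CPM) in QFM and a log2 ratio of -3.85 (-7.01 to -1.79). PTPRB+ nuclei had 2 UMIs in EOM and 0 in QFM, and EOM PDGFRA+ nuclei had 0 beside 4 in QFM. No UMI of LHX2 was found in mural-like or macrophage-like nuclei of either muscle, where 3 counts, the limit that a count of 0 allows, would be 2.61 to 3.68 CPM.

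TBX1 was found in all 4 groups of QFM nuclei. Its level was 30.9 CPM in myonuclei, 22.7 in PAX7+, 7.00 in PDGFRA+ (6 UMIs) and 13.3 in PTPRB+ nuclei (51 UMIs). PAX7+ nuclei had 73.5% of the myonuclear level beside a tracer median of 7.63%, and none of the 26 tracers, the highest at 48.5%, stood as high. This was not particular to PAX7+ nuclei. TBX1 was also above all 26 tracers in mural-like (66.4%), macrophage-like (49.7%), PTPRB+ (43.1%) and PDGFRA+ nuclei (22.6%). Counting intervals of the PAX7+, mural-like, macrophage-like and PDGFRA+ values took in the highest tracer of each. The PDGFRA+ value rested on 6 UMIs, and in stromal-like clusters (25.8%, 31 UMIs) 1 tracer stood as high. Of the 51 UMIs of PTPRB+ nuclei 25 came from 16 nuclei of a cluster described below. In T or NK-like nuclei, on 3 UMIs, 4 tracers stood as high. The yardstick thus did not set the TBX1 of PAX7+ nuclei apart from that of other classes. PAX7+ nuclei of EOM had 14.2 CPM on 10 UMIs, and the log2 ratio to QFM, -0.68 (-1.93 to 0.47), took in 0.

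A pair of small clusters held the highest TBX1 of QFM, and both were singled out after their values were seen. The first was a cluster of 305 myonuclei led by ACTC1, TNNC2 and the mitochondrial genes CYTB and COX3, with 3.36% mitochondrial UMIs, the highest share among QFM myofibre-like clusters. TBX1 was at 97.6 CPM (85.3 to 111) there, with a UMI in 37.7% of nuclei, and at 12.2 to 34.9 CPM in the other myofibre-like clusters of QFM. Its log2 ratio to the other myonuclei was 1.85 (1.64 to 2.06). Without that cluster and its EOM counterpart by mitochondrial share, the EOM to QFM log2 ratio of TBX1 in myonuclei was -0.63 in place of -0.82. The part of RNA quality in this level was not tested.

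The second was a cluster of 41 endothelial-like nuclei led by CCL21, RELN, PKHD1L1 and MMRN1, genes known from lymphatic vessels, a tissue in which TBX1 is known to act. TBX1 had 51 UMIs there, or 395 CPM (294 to 520), with a UMI in 58.5% of nuclei. The other endothelial-like clusters of QFM were at 5.19 to 8.02 CPM, and the other 4 factors had 0 UMIs in the cluster. PTPRB+ nuclei of QFM outside it had 6.90 CPM in place of 13.3, and the log2 ratio of EOM to QFM in that gate went from -1.23 (-2.14 to -0.40) to -0.28, with an interval that took in 0. Within the QFM gate, 16 nuclei of this cluster held 25 of the 51 UMIs of TBX1. The cluster was singled out after its TBX1 was seen and was left out of QFM only, so a smaller difference followed from that choice.

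Endothelial-like barcodes with at least 2 UMIs of those 4 leading genes were also collected in each library. In QFM 49 such nuclei had TBX1 at 295 CPM against 6.70 CPM in the others, a log2 ratio of 5.46 (4.75 to 6.21). EOM had 24 such nuclei with 1 UMI of TBX1, and 129 such cells with 3 UMIs, or 8.86 CPM. PROX1, the lymphatic master regulator, was not used in the choice and was higher in the chosen barcodes of all 3 libraries. It was at 750.2 against 2.83 CPM in QFM nuclei, 165 against 19.3 in EOM nuclei and 142 against 35.1 in EOM cells. FLT4 and LYVE1, not used either, were higher in the chosen barcodes of QFM only, at 295 against 27.3 and 402 against 3.35 CPM. In EOM nuclei FLT4 was at 12.7 against 28.1 CPM (1 UMI in the chosen) and LYVE1 at 0 against 2.56. In EOM cells they were at 17.7 against 19.9 and 5.90 against 7.11 CPM. The chosen EOM barcodes were therefore not shown to be lymphatic. CCL21 was at 2133 CPM in the chosen QFM nuclei, at 26.6 CPM (9 UMIs) in the chosen EOM cells and at 0 UMIs in the chosen EOM nuclei. The chosen groups thus differed in these genes, and TBX1 was not compared between the muscles in them.

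**Figure D5:**
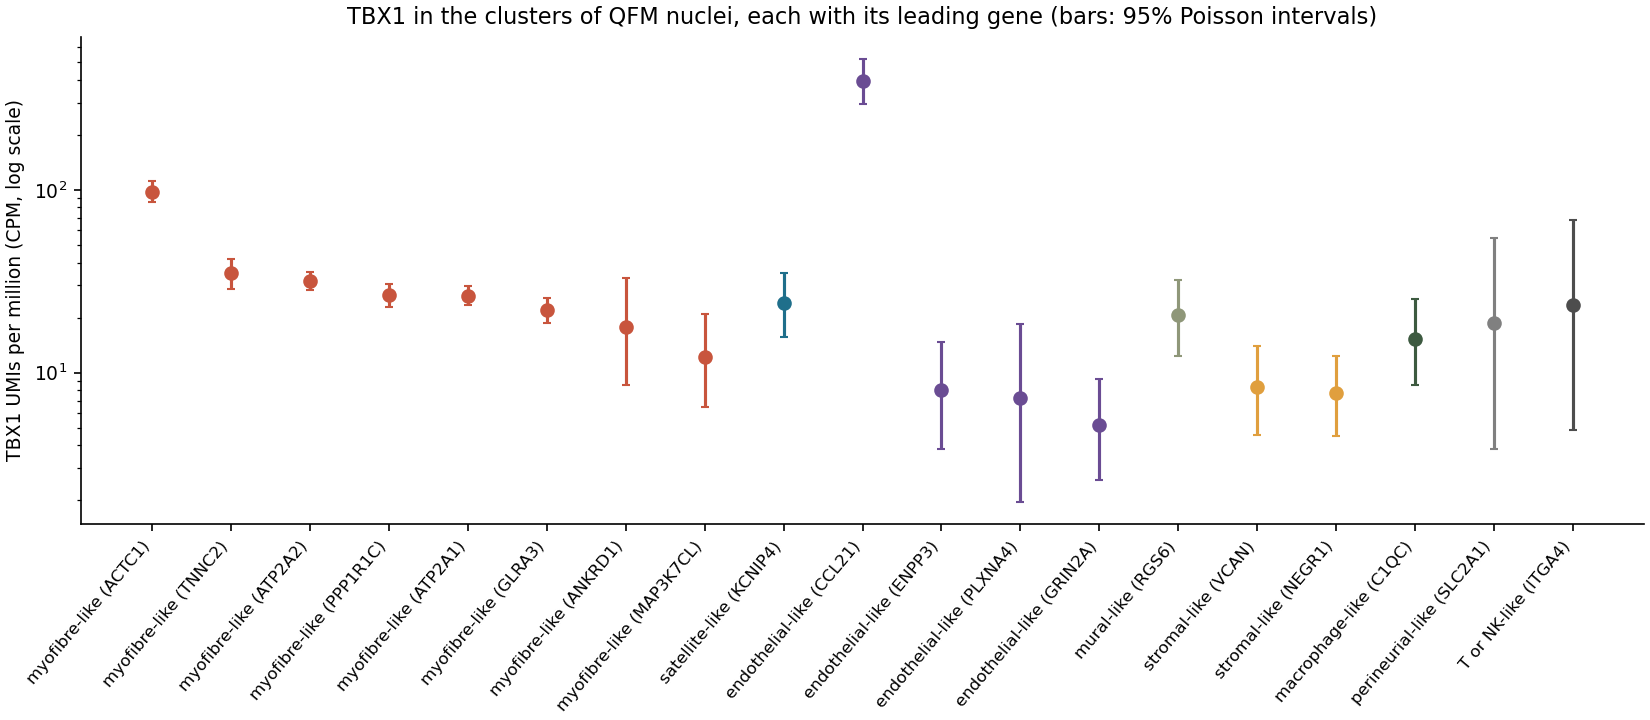
TBX1 in CPM (log scale) in each cluster of QFM nuclei with at least 30 nuclei, named by its marker list and its leading gene, with 95% Poisson intervals. The CCL21-led endothelial-like cluster stands at 395 CPM and the ACTC1-led myofibre-like cluster at 97.6, above all other clusters.

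Whole EOM cells held few myofibres (33 cells), and the gates there took 1, 25 and 323 cells, so the cells were read by cluster. LMX1A had 36 UMIs, 32 of them in 1455 stromal-like cells (18.4 CPM, 12.6 to 26.0), 3 in myofibre-like and 1 in mural-like cells. None fell in 1778 endothelial-like cells, where 3 counts would be 1.22 CPM. Taking 3 counts as the endothelial sum, stromal-like cells were 15.02-fold higher, a log2 ratio of 3.91 with a lower limit of 3.53. The stromal LMX1A of EOM nuclei was thus also seen in a library with few fibres. ALX4 had 10 UMIs, of which 6 were in stromal-like cells and 2 in 32 satellite-like cells, and LHX2 had 1.

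MSC was detected in EOM cells as well, with most of its UMIs in cells of the vessel wall. Mural-like cells (pericytes and vascular smooth muscle) had 206 of 286 UMIs, or 71.8 CPM, and a UMI was seen in 9.25% of them. Stromal-like cells had 60 UMIs (34.5 CPM) and endothelial-like cells 6 (2.45 CPM). The 32 satellite-like cells had 3 UMIs, or 84.1 CPM (17.3 to 246), and the 33 myofibre-like cells 2, or 38.6 CPM (4.67 to 139). The log2 ratio was 4.87 (3.73 to 6.34) for mural-like over endothelial-like and 1.06 (0.636 to 1.497) for mural-like over stromal-like cells, with median depths of 1499.5 UMIs in mural-like and 997.5 in endothelial-like cells. All 3 mural-like clusters had it, at 61.9, 90.0 and 94.5 CPM. In mural-like nuclei of EOM MSC had 6 UMIs, or 23.0% of the PAX7+ level (7.38 to 62.0%), above all 5 satellite-cell tracers (up to 6.14%). TBX1 had 30 UMIs in the cells, 15 in endothelial-like (6.12 CPM), 7 in macrophage-like (6.60 CPM) and 4 in myofibre-like cells, and 0 in 1860 mural-like cells, which allows up to 1.05 CPM.

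The other regulators of head and limb muscle give these values a frame. On a list of 22 cranial and periocular regulators 18 had a symbol and 13 were measured in myonuclei. Of these 7 were at least 2-fold higher in EOM, 1 was lower and 5 lay within 2-fold, with a median log2 ratio of 2.19 beside 0.41 over all genes, of which 33.1% were higher and 8.93% lower. TBX18 was at 20.7 CPM in EOM and 0.188 in QFM (6.78) and EBF1 at 455 and 30.6 (3.89). ALX1, a relative of ALX4, was at 1.40 and 0.0471 CPM (4.90), on 2 UMIs in QFM. LMX1B, the paralogue of LMX1A, was at 2.66 and 0.212 CPM (3.65), and MYF5 at 3.66 and 0.8001 (2.19). ISL1, a pharyngeal factor, had 0 UMIs in EOM and 22 in QFM. In PDGFRA+ nuclei of EOM, EBF1 was at 5708, TBX18 at 99.8 and LMX1B at 22.7 CPM, above these myonuclear levels. MYF5 was likewise higher in PAX7+ nuclei of EOM, at 42.6 CPM. The listed genes were not set beside tracers, so their own expression in myonuclei was not separated from background.

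Of 11 measured trunk and limb regulators 4 were higher and 7 lower in EOM myonuclei, with a median log2 ratio of -4.08. Over all genes 33.1% were higher, close to the share of this list, and 8.93% lower. SIM1, a factor of limb muscle precursors, was at 0.143 and 55.4 CPM (-8.60). HOXC9 had 0 and 767 UMIs, 210.2-fold lower in EOM where its 0 is taken as 3 counts (-7.72, upper limit -7.41). PAX3, which is known from migrating limb muscle precursors, went the other way, at 60.6 CPM in EOM and 3.81 in QFM (3.99), and so did TBX15 at 1612 and 551 CPM (1.55). Of 7 measured genes on a list built around the EYA and DACH genes 3 were higher and 0 lower, with a median of 0.64, which is near the 33.1% higher and the median of 0.41 over all genes. DACH1 was at 340 and 13.01 CPM (4.71) and EYA2 at 59.1 and 5.06 CPM (3.55). Both were higher in PDGFRA+ nuclei of EOM, at 416 and 950 CPM, and were not set beside tracers.

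In PAX7+ nuclei 2 of 7 measured cranial regulators were higher in EOM and 2 lower, beside 9.14% and 13.5% of all genes, and their median log2 ratio was 0.41 beside 0.0029 over all genes. TBX18 was at 25.5 and 3.25 CPM (2.97) and EBF1 at 464 and 145 (1.68), while MYF5 was at 42.6 and 432 CPM (-3.34) and MYF6 at 61.0 and 283 CPM (-2.21). MYF5 and MYF6, factors that drive entry into the muscle programme, were thus lower in EOM together with MSC. In PDGFRA+ nuclei 3 of 6 cranial regulators were higher and 1 lower, beside 9.63% and 15.6% of all genes, with TBX18 at 99.8 and 19.8 CPM. In PTPRB+ nuclei 1 of 6 was higher and 0 lower, near the 10.9% and 6.47% of all genes.

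Genes with levels most like those of each factor were sought over 18 groups of nuclei from the 2 libraries, by Pearson correlation of log2(CPM + 5) among 9830 genes. These correlations describe groups that share libraries and, for clusters, nuclei of a like depth, and carry no test. ALX4 came first for LMX1A (0.94), followed by the glutamate receptor subunit GRIA3 (0.94) and SNAP91 (0.93). GRIA3 (0.96), PAX3 (0.95) and RIMS2 (0.95) came first for ALX4. ACADVL (0.91), an enzyme of fatty acid burning, came first for TBX1, and the secreted protein gene C1QTNF3 (0.97) for MSC. LHX2 was under 20 CPM in every group and was not matched.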

How the data were processed

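RNA of 3 libraries was analysed from tables of raw UMI counts per gene and barcode, as deposited by the authors. Cell Ranger 7.2.0 and Seurat 5.2.1 are named, without their steps, per the submitters' processing notes. The build, annotation and use of intronic reads are not stated in the labels or tables. The cell table names genes in another style, so its missing symbols were taken from an NCBI gene table of the species, used for names only. The sample titles gave the groups.

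The 5 factors, gene lists and marker lists were chosen with earlier results of these data known. Filters asked for 500 UMIs and 200 genes, and for mitochondrial shares up to 10% (nuclei) or 20% (cells). Scrublet (expected rate 6%) called 2498, 1866 and 188 doublets in EOM nuclei, QFM nuclei and EOM cells, which were removed. The 2 tables of nuclei shared 50 kept barcode sequences. Each library was clustered alone (2000 variable genes without the 5 factors, 30 components, 15 neighbours, Leiden resolution 1), giving 26, 23 and 22 clusters. Clusters took the name of the best of 14 marker lists, scored by mean z of log2(CPM + 5) among lists with at least 3 markers seen in 10% of barcodes. The minimum score of 0.3 was chosen after the clusters were seen.

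Gates took at least 2 UMIs of the gate gene and 0 of the others. The leading chain needed at least 3 chain UMIs and no tie. Tracers were listed class genes with at least 20 CPM in the source. Log2 ratios have conditional exact binomial, sums exact Poisson and shares Clopper-Pearson intervals, and a 0 count in a ratio was taken as 3 counts. A gene was measured in a ratio with at least 20 counts over both sums. The text names the 5 factors, every cranial regulator past 2-fold in myonuclei, up to 4 members of the other lists and the genes of most alike level, except a few genes that are counted in their lists but not reported here by name. Other cranial regulators and all clusters singled out were named after their values were seen. Ratios and intervals were tested on simulated data. Alternatives included doublets, resolution, filters, scaling, thinning, gates and chain cut-offs. Software was scanpy 1.11.5 with igraph 0.11.9 and scikit-learn 1.9.0, numpy 2.4.6 with anndata 0.12.19, pandas 2.3.3 with scipy 1.17.1, and matplotlib 3.10.9, on Python 3.11.15 with seed 1.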

Additional observations from a re-analysis of the deposited data

How the results depend on the processing

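Values here are log2 ratios. No paired analysis was possible because each group is 1 library, and no replicate could be left out for the same reason. Of 120 alternative values for the main comparisons 92 moved by less than the counting interval of the value reported, 26 moved by more and 2 changed sign. Pooling all kept nuclei gave EOM to QFM ratios of 5.33 for LMX1A, 5.04 for ALX4, 1.46 for LHX2, -0.97 for TBX1 and -0.75 for MSC, the reverse of its sign in myonuclei. Median ratio scaling gave 4.87 for ALX4 and -1.22 for TBX1 in myonuclei. Thinning gave -0.45 for TBX1 and 0.48 for MSC, the latter at the floor with 4 UMIs in EOM and 0 in QFM, and TBX1 was -0.68 with doublets kept. Without the myofibre-like cluster of highest mitochondrial share TBX1 was -0.63. LMX1A was 5.49 in PAX7+ nuclei and 3.81 in PTPRB+ nuclei with a gate of 1 UMI, 0.73 in PDGFRA+ nuclei with a gate of 3, and 4.25 in PTPRB+ nuclei with no condition on the other gate genes. ALX4 was 3.22 in stromal-like clusters in place of PDGFRA+ nuclei.

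With a chain share of at least 80%, LMX1A was 2.67 for MYH15-led and 0.99, on 1 UMI, for MYH7-led over MYH13-led nuclei, and ALX4 -0.94 for MYH15-led over MYH13-led. Thinning gave 1.85 for LMX1A of MYH15-led over MYH13-led nuclei and 0.61 for ALX4 of MYH3-led over MYH7-led nuclei of QFM. Over carry-over, summed tracer counts gave 1.56 for LMX1A and 1.87 for ALX4 in PAX7+ nuclei of EOM and -3.24 for MSC in QFM myonuclei. With doublets kept the values were 0.51 and 0.81 for LMX1A and ALX4 in PAX7+, 1.27 for LMX1A in PDGFRA+ and 0.066 for LMX1A in PTPRB+ nuclei. The cause of these changes was not tested. With genes of at least 1 count in place of 20, the shares past 2-fold were 34.5% and 13.3% in myonuclei, 18.6% and 19.6% in PAX7+, 18.2% and 21.7% in PDGFRA+ and 21.3% and 13.5% in PTPRB+ nuclei, higher and lower in EOM. Alternatives by chain share within a gate, by the CCL21-led cluster, by lymphatic genes, by MYH15 share, by myofibre cluster and by mitochondrial share were chosen after seeing the data.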

Other observations

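LHX2 was also seen in EOM barcodes of 767 nuclei with neuronal transcripts, shallow at a median of 877 UMIs, where it had 12 UMIs or 14.5 CPM (7.47 to 25.2). That was 92.6% of its level in PAX7+ nuclei, beside a median of 8.49% for satellite-cell tracers. LMX1A in the same barcodes was at 176 CPM, or 39.2% of its myonuclear level beside a tracer median of 49.3% (41.3 to 203%). LMX1A thus lay below all 27 myofibre tracers there, and LHX2 above all 5 satellite-cell tracers.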
